A study of Homo sapiens with 6 samples.

Results

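The genes described here encode molecular chaperones and heat shock proteins, which were taken from GENCODE release 44 as the protein-coding genes with the symbols of the HSP70 and HSP110 (HSPA, HSPH1), HSP90, small heat shock (HSPB), mitochondrial chaperonin (HSPD1, HSPE1), J protein (DNAJA, DNAJB, DNAJC) and cytosolic chaperonin (CCT2 to CCT8 and their relatives) families. There were 82 of them among 20046 protein-coding genes. The symbol pattern did not take TCP1, the CCT subunit with another type of symbol, and it did take DNAJC25-GNG10, a readthrough gene. Crosslinked sites of the RNA-binding protein IGF2BP3 on their transcripts were compared between RNase conditions, for which there were 6 libraries, 1 per condition, from HCT116 cells, an established human colorectal carcinoma line. In every library the cells had received 100 µM 4-thiouridine for 15 h before 365 nm UV light at 0.15 J/cm2, so that a crosslinked uridine is read as C and T-to-C conversions mark protein contacts. A library contains clusters, that is, groups of overlapping reads with conversions that were called in this library alone.

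The endogenous IGF2BP3 was immunoprecipitated in 5 libraries, and RNase was added in the lysate and again on the beads (both concentrations in U/µL). These libraries were RNase I 0.05/0.05, RNase I 0.1/0.025, RNase I 0.05/0.025, RNase T1 1/1 and RNase T1 0.25/0.25, and 5 values given in a row below follow this order. The remaining library was made with control IgG after RNase I 0.1/0.025. The authors report that their anti-IGF2BP3 antibody also partially recognizes the paralog IGF2BP2, so that sites of both proteins cannot be told apart here. RNase T1 cleaves after G, whereas RNase I cleaves after any base. RNA of RNase I 0.05/0.05 and of RNase T1 1/1 was electroeluted from the gel and RNA of the other IGF2BP3 libraries came from crushed gel. The electroeluted libraries were also the deepest, with 2362467 and 1157194 cluster reads against 803490, 670712 and 182448, and gel extraction, depth and RNase concentration cannot be told apart between both sets. As no condition had a replicate, there is no test and no p-value, and every interval below is a 95% interval that covers counting error only. Among 7 epithelial marker genes 6 had a cluster in at least 1 library (46.7% of all protein-coding genes had one) and 1, EPCAM, in all 5 (15.8% of all). The intestinal marker VIL1 had no cluster and CDX2 only 5 reads, in RNase T1 1/1. PTPRC, ALB and DES, which mark blood, liver and muscle cells, had no cluster.

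Chaperones bind unfolded or partly folded polypeptides. HSP70 proteins cycle between loose and tight binding of a substrate, J proteins deliver substrates and stimulate the ATPase of HSP70, HSP110 proteins exchange its nucleotide, HSP90 acts late on kinases and receptors, and the barrel-shaped chaperonins enclose their substrate. Many of these proteins are abundant in growing cells, and some of them are induced by heat through HSF1. IGF2BP3 is an oncofetal mRNA-binding protein that mainly contacts 3′UTRs.

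The sites with the highest mean level are shown first, as the results turn on them. A site is the union of overlapping clusters of all 5 libraries on 1 gene, its level is given in CPM (reads per 1000000 cluster reads of the library), and the 30 nt around the mode of its strongest cluster are printed from GRCh38 in the direction of the transcript, 5′ to 3′. Capitals mark matches to 6 tetramers, which were searched on the transcript strand only, with overlaps allowed. They were CATT with its relatives CATA and CATC, which spell the CAU-type element known for IGF2BP proteins, further CAGT as well as GGCA and finally ACAC.
HSP90AA1, chr14:102081392-102081421, minus strand, 3′UTR: ttagctgtcaagccggatgcctaagtagac
HSPD1, chr2:197486655-197486684, minus strand, 3′UTR: taagcagcctttctgtggagagtgagaata
DNAJC8, chr1:28200585-28200614, minus strand, 3′UTR: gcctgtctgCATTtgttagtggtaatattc
HSP90AB1, chr6:44253523-44253552, plus strand, coding sequence: caatgctgCAGTtcctgatgagatcccccc
DNAJC9, chr10:73242883-73242912, minus strand, 3′UTR: ttgtactgatgtacaggtgttaaattactt
CCT2, chr12:69601318-69601347, plus strand, across the stop codon: cctgttaagCATTcccacgtgctgtcgatc
HSPA5, chr9:125236436-125236465, minus strand, 3′UTR: tatagcctaagcggctgtttactgcttttc
HSPE1, chr2:197503315-197503344, plus strand, 3′UTR: tgaaatctttcgtcatgtaaataatttcca
DNAJB1, chr19:14514937-14514966, minus strand, 3′UTR: ctctctgtatagggcCATAatggaattctg
DNAJA2, chr16:46956786-46956815, minus strand, 3′UTR: taaagcacttgaaaggaaacaagactccct

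Of these 10 windows 4 held at least 1 of the CAT tetramers or CAGT, and none held GGCA or else ACAC. Windows of the same length at the modes held 1 of the same 4 tetramers in 18 of the 53 member sites that were found in all 5 libraries (34.0%), compared with 48.9% of the 5474 such sites of all protein-coding genes. Over all 544 member sites the share was 47.1%, compared with 45.2% of 81580 sites. A tetramer in a window is a match of letters and was not tested as a binding site.

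Most of the chaperone genes had clusters. At least 1 cluster was found on 58 of the 82 genes (46.7% of all protein-coding genes had one) and clusters in all 5 libraries on 33 (15.8% of all). By library 56, 46, 44, 52 and 34 genes had a cluster, where the share of all protein-coding genes was 43.7%, 32.0%, 30.3%, 37.6% and 16.7%. Clusters on chaperone genes held 18912, 7097, 6767, 7245 and 1529 reads, which were 0.801%, 0.883%, 1.01%, 0.626% and 0.838% of the cluster reads of the library. Levels of the RNA itself were not used here, so that an abundant transcript and a strongly bound one cannot be told apart.

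Target genes were those with a cluster above 10 CPM in which the conversion events exceeded 0.5 per read. Targets were 35, 37, 35, 33 and 30 of the 82 genes, and 21.9%, 21.3%, 22.0%, 19.6% and 13.7% of all protein-coding genes. In RNase T1 0.25/0.25 10 CPM correspond to 1.82 reads, so that the CPM threshold removes little there. With at least 20 reads per cluster 9 genes in place of 30 were targets in this library (11.0%), compared with 2.52% of all protein-coding genes. In all 5 libraries 23 genes were targets (9.91% of all protein-coding genes): HSP90AA1, HSP90AB1, HSP90B1, HSPA5, HSPA8, HSPA13, HSPA4L, HSPH1, HSPD1, HSPE1, CCT2, CCT3, CCT5, CCT6A, DNAJA2, DNAJB1, DNAJB6, DNAJB14, DNAJC3, DNAJC8, DNAJC9, DNAJC11 and DNAJC25-GNG10. With at least 20 reads per cluster 8 genes were targets in all 5, and the share over all genes is not given for this count. The plot of CPM by library shows these 23 genes.

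**Figure D1:**
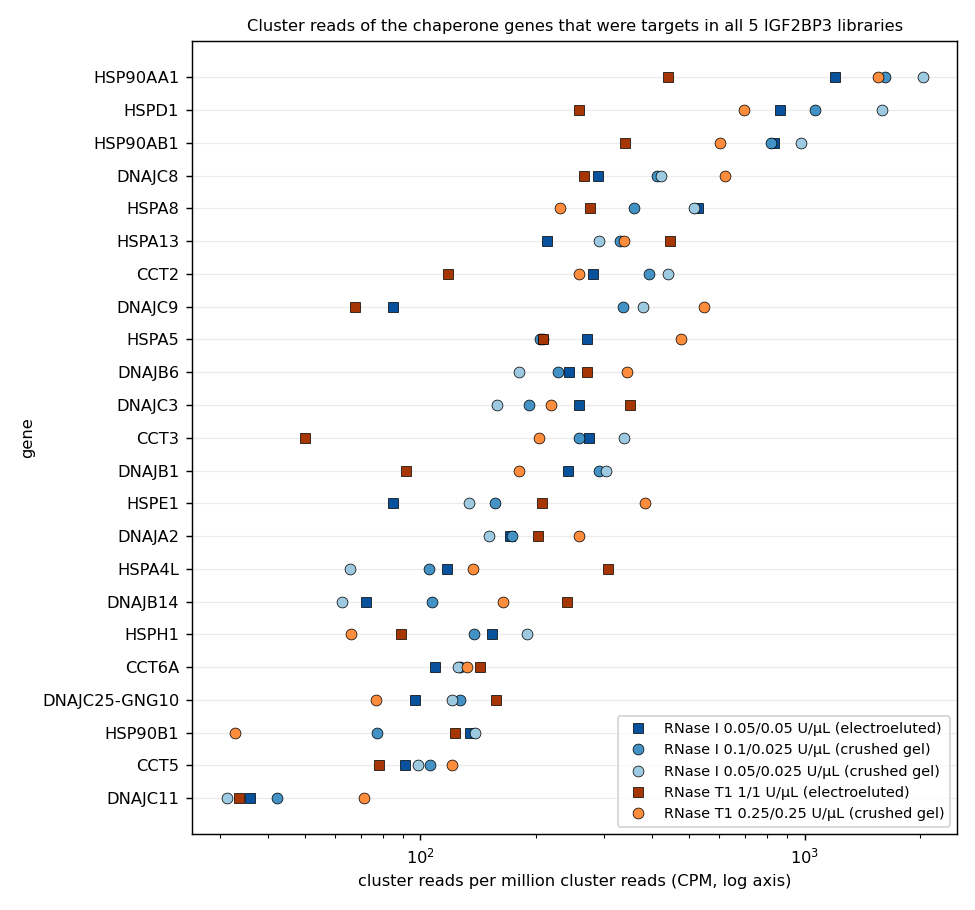
CPM (log axis) of the 23 chaperone genes that were targets in all 5 IGF2BP3 libraries, 1 point per library, with squares for electroeluted and circles for crushed-gel libraries, RNase I in blue and RNase T1 in orange. HSP90AA1 was highest in each library except RNase T1 1/1, where HSPA13 had 446 CPM and HSP90AA1 442, and DNAJC9 had its electroeluted libraries (67.4 and 85.1 CPM) far below the others.

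The 3 HSP90 genes held 10709 reads in the 5 libraries. HSP90AA1, the heat-inducible cytosolic HSP90, had 2843, 1301, 1361, 512 and 284 reads, which correspond to 1203, 1619, 2029, 442 and 1557 CPM. Each of the crushed-gel libraries was above each electroeluted one, and RNase T1 1/1 was lowest. HSP90AB1, the constitutive cytosolic form, had 834, 818, 977, 340.5 and 603 CPM, with each RNase I library above each RNase T1 library. HSP90B1, the form of the endoplasmic reticulum, was lower, at 135, 77.2, 139, 123 and 32.9 CPM, and its lowest value rests on 6 reads. As longer transcripts offer more sequence, levels of different genes were set side by side per kb of the canonical transcript. On this scale HSP90AA1 had a mean of 424 CPM per kb over the 5 libraries, HSP90AB1 279.6 and HSP90B1 36.4.

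In the mitochondrial chaperonin the large subunit HSPD1 and its lid HSPE1 differed in their pattern, although their genes are neighbors in a head-to-head arrangement. HSPD1 had 862, 1062, 1592, 258 and 696 CPM, and each RNase I library was above each RNase T1 library. HSPE1 had 84.7, 156, 134, 207 and 384 CPM, and here each RNase T1 library was above each RNase I library. Per kb both were near the top, with means of 398 and 347 CPM per kb, since the HSPE1 transcript is only 557 nt long. All 725 HSPE1 reads lay in a single site that began in the last coding codons and covered most of the 3′UTR.

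The HSP70 family had clusters on 5 of 12 genes (46.7% of all protein-coding genes had one), and 3 were targets in all libraries (9.91% of all). HSPA8, the constitutive cytosolic HSP70, had 528, 359.7, 514, 277 and 230.2 CPM, and both RNase T1 libraries were lowest. HSPA5, the HSP70 of the endoplasmic reticulum, had 272, 205, 209, 208 and 477 CPM, so that 4 libraries were close and RNase T1 0.25/0.25 stood above them. HSPA13, a microsomal member, had 213, 329.8, 291, 446 and 339.8 CPM. HSPA9, the mitochondrial HSP70, had 132, 133, 116 and 91.6 CPM in the 4 deeper libraries and no read in RNase T1 0.25/0.25, where a count of 0 allows up to 16.4 CPM. HSPA12A showed 102, 83.4, 80.5 and 109.7 CPM and again no read in that library.

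No cluster was found on HSPA1A, HSPA1B, HSPA1L, HSPA2, HSPA6, HSPA12B and HSPA14. HSPA1A, HSPA1B and HSPA6 are classical stress-inducible genes. The canonical transcript of HSPA1A shares 77.0% of its 30-nt words with HSPA1B, and HSPA6 shares 57.7% with HSPA7. How reads that align to several places were treated is not given in the sources used here, so that a lack of clusters on these genes cannot be told apart from a lack of unique alignments. All 3 members of the HSP110 group had clusters in each library (15.8% of all protein-coding genes had this). HSPA4L had 117, 105, 65.6, 307 and 137 CPM and HSPH1 154, 138, 189, 89.0 and 65.8, so that the former was highest and the latter low with RNase T1. HSPA4 had 147, 136, 110.3, 67.4 and 32.9 CPM and was a target in 4 libraries.

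Among the 9 CCT genes, which mostly encode subunits of the cytosolic chaperonin for actin and tubulin, 7 had clusters and 4 were targets in all 5 libraries. The shares of all protein-coding genes were 46.7% and 9.91%. CCT2 had 282, 393, 441, 118 and 258 CPM. CCT3 had 274, 258, 338, 50.1 and 203 CPM. For both, each RNase I library was above each RNase T1 library. CCT6A was the most even of the subunits, at 109, 127, 125, 143 and 132 CPM, and CCT5 had 91.4, 106, 98.4, 77.8 and 121. CCT4 ranged from 37.3 CPM in RNase I 0.1/0.025 to 163 in RNase I 0.05/0.025, and CCT8, a target in 2 libraries, from 34.8 to 82.2 CPM. CCT7 had 37 reads in all, and CCT6B and CCT8L2, which are testis-type relatives, had no cluster.

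The J proteins were the largest group, with clusters on 36 of 45 genes (46.7% of all protein-coding genes had one). All 4 DNAJA genes had clusters, with DNAJA2, a cytosolic co-chaperone of HSPA8, at 171, 173, 151, 202 and 258 CPM. DNAJA3, the mitochondrial member, had 135, 167, 154, 101 and 132 CPM. In the DNAJB group 8 of 12 genes had clusters, and DNAJB1, the main partner of stress-induced HSP70, had 242, 291, 304, 91.6 and 181 CPM with each RNase I library above each RNase T1 library. DNAJB6, which suppresses polyglutamine aggregation, had 243, 228, 180.4, 272 and 345 CPM and DNAJB14, a membrane protein of the endoplasmic reticulum, 72.0, 107, 62.6, 241 and 164, in both cases with each RNase T1 library above each RNase I library.

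In the DNAJC group 24 of 29 genes had clusters (46.7% of all protein-coding genes) and 5 were targets in all libraries (9.91% of all). DNAJC8, which is linked to splicing, had 290, 413, 422, 266 and 619 CPM. DNAJC9, a histone co-chaperone, had 85.1, 336, 379, 67.4 and 548 CPM, so that the lowest crushed-gel library was 3.95 times the highest electroeluted one. DNAJC3, a lumenal protein that acts in the unfolded protein response, had 259, 192, 158, 351 and 219 CPM. DNAJC11, a mitochondrial membrane protein, was the lowest of the 23 shared targets, with 31.3 to 71.3 CPM. DNAJC25-GNG10 is uncertain as a member, since all 28 of its clusters lay on exons of GNG10, a G protein subunit, and without it 22 genes were targets in all libraries. No cluster was found on DNAJB5, DNAJB7, DNAJB8, DNAJB13, DNAJC5B, DNAJC5G, DNAJC12, DNAJC17 and DNAJC28.

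Of the 8 small heat shock protein genes 2 had clusters, where 46.7% of all protein-coding genes had one. HSPB1 (HSP27), which holds unfolded proteins in soluble oligomers, had 76.2, 58.5, 74.5, 11.2 and 121 CPM and was a target in 4 libraries. HSPB8, a partner of BAG3, had 47 reads in a single site. HSPB2, HSPB2-C11orf52, HSPB3, HSPB6, HSPB7 and HSPB9, several of which are known from muscle or testis, had no cluster.

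It was next asked which part of the transcripts the clusters lay on. A cluster that touched several features was counted for the 3′UTR first, then for the coding sequence and then for the 5′UTR. In this order 74.5%, 81.8%, 79.4%, 83.7% and 90.8% of the chaperone reads lay in 3′UTR clusters, where the shares over all protein-coding genes were 81.2%, 83.0%, 81.6%, 87.9% and 88.0%. Coding sequences held 24.1%, 16.7%, 19.0%, 13.5% and 7.59% of the chaperone reads. The order matters for long clusters across the stop codon, and with the coding sequence first the 3′UTR share of RNase I 0.05/0.05 was 45.1% in place of 74.5%.

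The families differed in this respect, as the plot of feature shares shows. Pooled by group, J protein reads lay mostly in 3′UTR clusters, at 91.2% to 100% in each of the DNAJA, DNAJB and DNAJC groups and each library. Single J protein genes with fewer reads were lower. The 3′UTR share was 41.3% of 235 reads for DNAJC21, 46.6% of 178 for DNAJC22 and 58.8% of 80 for DNAJC10. It was 53.1% of 49 reads for DNAJB2 and 50.0% of 46 for DNAJC14. Outside the J proteins, HSPA8 had only 13.6% of its 2243 reads in 3′UTR clusters and 79.8% in the coding sequence. Its coding share was 70.6% to 84.6% in the single libraries. HSP90B1 had 67.3%, CCT8 63.3%, HSP90AB1 54.2% and CCT4 51.9% of their reads in the coding sequence over all libraries, and so had DNAJC13 (72.2%) on only 54 reads, whereas HSP90AA1 had 22.0%. The coding share of HSP90AB1 was 49.2% to 59.6% in the 4 deeper libraries and 16.4% in RNase T1 0.25/0.25. Of the HSPA8 clusters, 5 with 120 reads also overlapped the small nucleolar RNAs SNORD14C and SNORD14D.

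**Figure D2:**
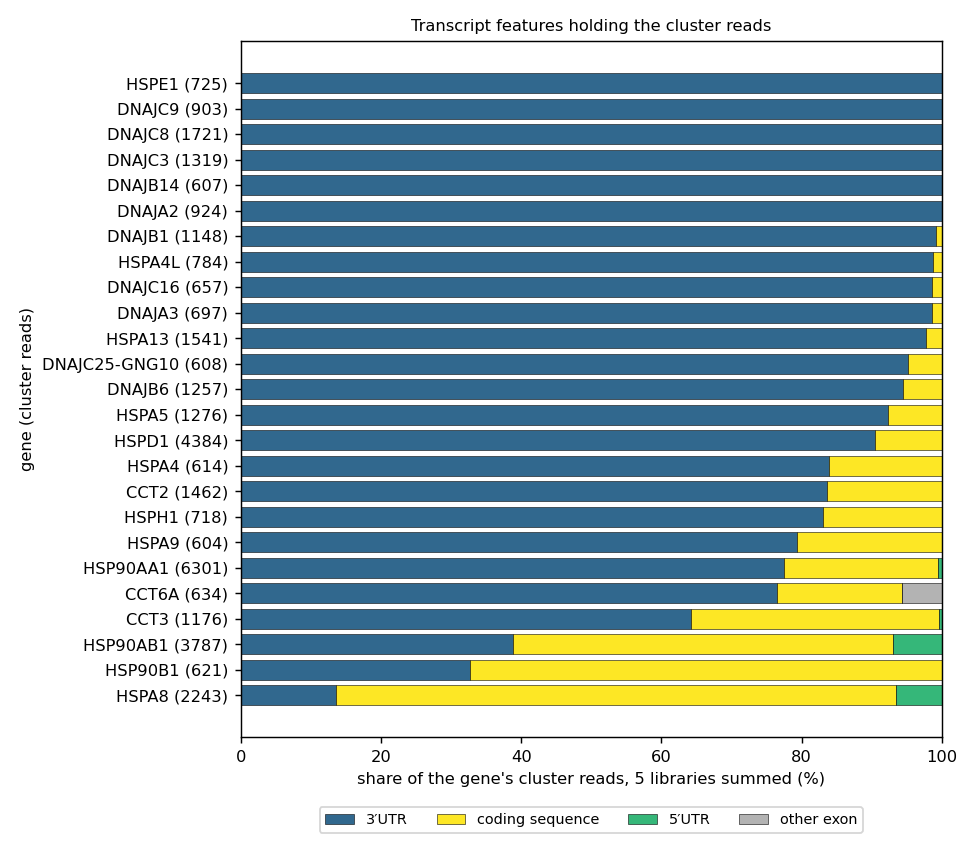
Share of the cluster reads (%, 5 libraries summed) in the 3′UTR, coding sequence, 5′UTR and other exons for the chaperone genes with at least 600 reads, with the number of reads in parentheses. HSPA8, HSP90B1 and HSP90AB1 had most of their reads in the coding sequence, and DNAJA2, DNAJB14, DNAJC3, DNAJC8, DNAJC9 and HSPE1 had all reads in clusters that touched the 3′UTR.

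The 3′UTRs of some of these genes were short, with 245 nt in HSPA8, 264 nt in HSP90B1 and 285 nt in HSP90AB1, compared with 970 nt in HSP90AA1 and DNAJC8 and 3958 nt in DNAJC3. HSPD1 and CCT2 also had short 3′UTRs of 462 and 245 nt but 90.4% and 83.6% of their reads in clusters that touched the 3′UTR. Such clusters can extend into the coding sequence, and the window printed for CCT2 lies across the stop codon. The leading HSP90AB1 site was counted for the 3′UTR as well, although its printed window lies in the coding sequence. In HSP90AA1 the leading site extended over 777 nt from the end of the coding sequence into the 3′UTR (chr14:102081025-102081801) and had 894, 1301, 1509, 312 and 1266 CPM. The clusters of RNase I 0.05/0.05 covered 97.6% of its 3′UTR and those of RNase T1 1/1 62.9%. The leading HSPD1 site (chr2:197486593-197486962) had 734, 953, 1455, 221 and 696 CPM, and its library order was that of the whole gene.

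**Figure D3:**
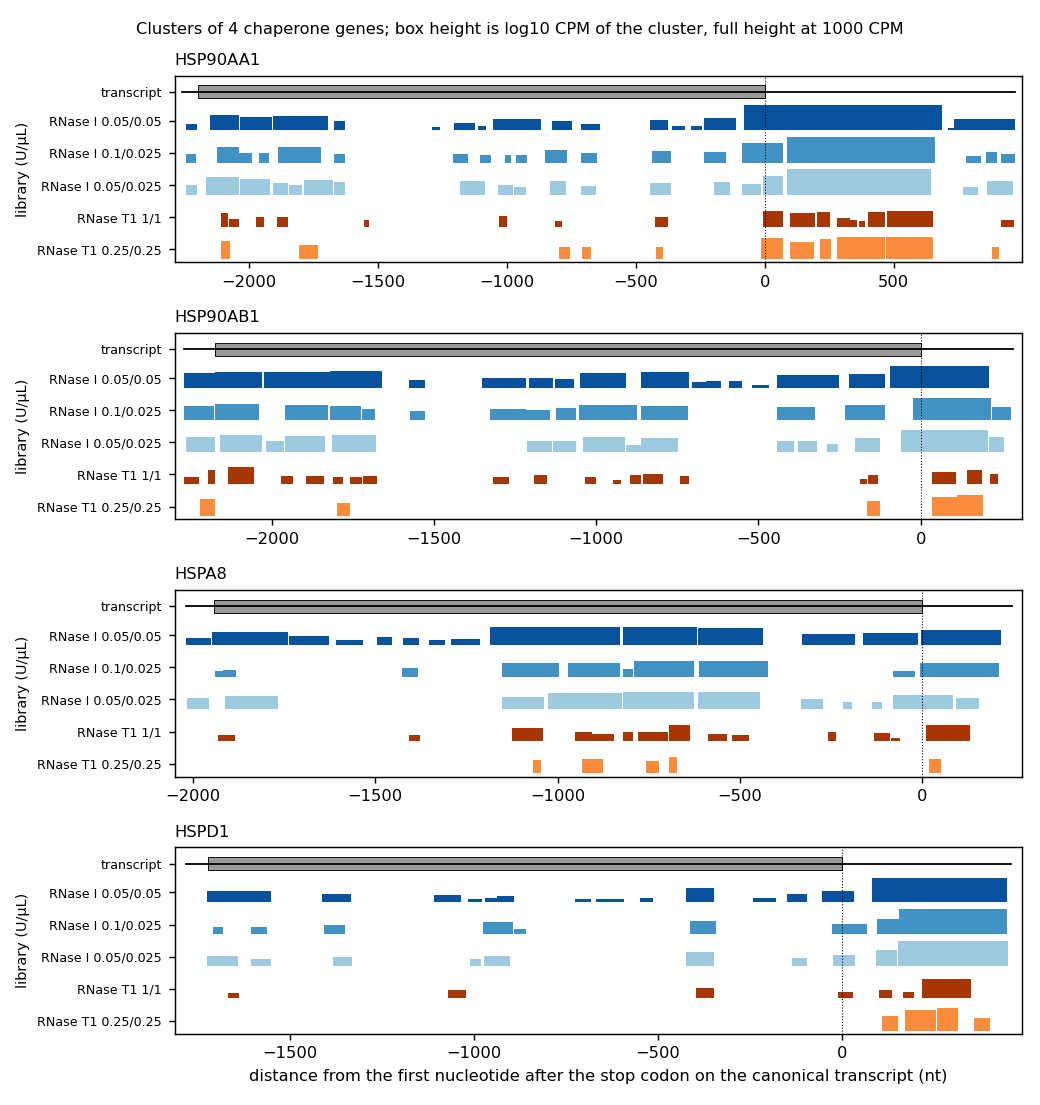
Clusters of HSP90AA1, HSP90AB1, HSPA8 and HSPD1 in the 5 IGF2BP3 libraries along the canonical transcript (nt from the first nucleotide after the stop codon, gray box for the coding sequence), with the box height giving log10 CPM of the cluster up to 1000 CPM. HSP90AA1 and HSPD1 clusters were highest in the 3′UTR, the highest HSPA8 cluster lay within the coding sequence in each library except RNase T1 1/1, where a 3′UTR cluster had 81.2 CPM and the highest coding one 69.1, and RNase T1 clusters (orange) were shorter than RNase I clusters (blue).

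Member clusters had a median length of 57.0, 57.5 and 56.0 nt with RNase I and of 33.0 and 38.5 nt with RNase T1. Of the 544 member sites 53 (9.74%) were found in all 5 libraries, compared with 6.71% of the sites of all protein-coding genes. Some genes had nearly all reads in 1 site. The leading site held 99.6% of the DNAJC8 reads, 92.1% of DNAJA2, 91.7% of DNAJC9, 88.0% of HSPD1, 83.6% of CCT2, 83.1% of DNAJB1 and 80.5% of HSPA5. In other genes the reads were spread, with 11.9% in the leading of 24 sites of DNAJB14, 24.3% in that of 28 sites of DNAJC3 and 23.6% in that of 15 sites of HSPA8.

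Within 3′UTRs, the modes of member clusters lay at a median of 895, 725, 505, 712 and 347 nt after the stop codon, compared with 1072, 946, 891, 1092 and 820 nt over all protein-coding genes. Relative to the length of the 3′UTR the medians were at 50.8%, 45.2%, 35.1%, 44.6% and 36.5% for members and at 43.0%, 41.3%, 40.7%, 42.6% and 39.4% for all genes. In RNase I 0.05/0.05 48.9% of the member modes (interval 43.0% to 54.8%) lay before the midpoint of the 3′UTR, compared with 56.7% of all. This interval treats clusters of 1 gene as independent, and with 1 cluster per gene the share was 54.2%. In the other libraries the member share was 54.2%, 59.2%, 55.0% and 61.6%, and the share over all genes lay within the member interval each time.

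The tetramer CATT was found in 44.3%, 47.9%, 40.7%, 36.0% and 48.0% of the member clusters and in 39.5%, 41.6%, 41%, 35.2% and 40% of the clusters on all protein-coding genes. Only in the first 2 libraries was the share over all genes below the member interval (39.9% to 48.7% and 42.0% to 53.9%). GGCA was found in 25.4% of the member clusters of RNase I 0.05/0.05 and in 9.22% of those of RNase T1 1/1, and in 19.9% and 7.42% of the clusters on all genes. ACAC was found in 19.5%, 17.2%, 20.2%, 11.2% and 15.7% of the member clusters and in 23.4%, 22.9%, 22.0%, 16.8% and 17.8% of all. Clusters on 1 transcript are not independent, and RNase I clusters were longer than RNase T1 clusters, which was not taken into account in these shares.

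Both enzymes were compared within each kind of gel extraction, among genes with at least 20 reads in the 2 libraries together. The libraries of a pair also differed in depth and in the units of enzyme added, which cannot be told apart from the enzyme. In the electroeluted pair, RNase I 0.05/0.05 over RNase T1 1/1, 12 of 52 members were more than 2-fold higher with RNase I (25.2% of all genes tested) and 11 more than 2-fold lower (15.6%). The median log2 ratio was 0.11 for members and 0.10 for all genes. DNAJC5, the synaptic cysteine string protein, had 36.4 and 4.32 CPM, a ratio of 8.42 (interval 3.47 to 26.6). HSPB1 had a ratio of 6.78 (3.87 to 13) and CCT3 of 5.46 (4.17 to 7.28). DNAJC14 and CCT7 had no read with RNase T1 1/1 and were at least 6.20-fold and at least 5.22-fold higher with RNase I against a floor of 3 reads. HSPD1 (3.34, 2.95 to 3.78) and HSP90AA1 (2.72, 2.47 to 2.99), which had many cluster reads, were also past 2-fold. On the other side DNAJC18 was 6.81-fold higher with RNase T1 (2.64 to 20.7), on 6 and 20 reads, DNAJC24, which acts in diphthamide synthesis, 5.75-fold (4.19 to 7.99), DNAJC21, a ribosome biogenesis factor, 4.02-fold (2.95 to 5.52), DNAJB14 3.35-fold (2.76 to 4.08) and DNAJC15, a mitochondrial import protein, 3.34-fold (1.91 to 5.96).

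In the crushed-gel pair, RNase I 0.1/0.025 over RNase T1 0.25/0.25, 8 of 37 members were more than 2-fold higher with RNase I (33.6% of all genes tested) and 5 more than 2-fold lower (6.28%). Here the median log2 ratio was 0.06 for members and 0.55 for all genes, and with ratios centered on the latter 6 members were more than 2-fold higher and 12 more than 2-fold lower. The share of all genes past 2-fold with centered ratios is not given here, and the shares above are not comparable with these counts. HSPA9, HSPA12A and DNAJC5 had no read with RNase T1 and were at least 8.10-fold, 5.07-fold and 4.31-fold higher with RNase I, and DNAJC16 and HSPA4 had a ratio of 4.13 each (1.84 to 11.5), on 109 and 6 reads in both genes. HSPE1 was 2.47-fold higher with RNase T1 (1.81 to 3.33), CCT8 2.36-fold (1.17 to 4.57), HSPA5 2.32-fold (1.77 to 3.03), HSPB1 2.06-fold (1.18 to 3.49) and CCT4 2.06-fold (1.01 to 4.00).

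Both pairs have no library in common. Of the 37 members tested in both, 24 had their ratio on the same side in both pairs (64.9%), compared with 64.2% of 4289 genes. DNAJC5 and HSPA4 were more than 2-fold higher with RNase I in both and HSPE1 more than 2-fold higher with RNase T1 in both. These are 2 and 1 of the 37 members, where 453 and 103 of the 4289 genes had this. The ratio of HSPB1 was on opposite sides, with 13 and 22 reads in the RNase T1 libraries. Over all 5 libraries, 14 of 53 members with at least 20 reads had each RNase I library above each RNase T1 library (20.5% of all genes) and 10 had the opposite (8.37%), namely CCT6A, DNAJA2, DNAJB4, DNAJB6, DNAJB14, DNAJC15, DNAJC21, HSPA4L, HSPA13 and HSPE1. This count was made after the values had been seen. Of the 14, DNAJB11 and DNAJC27 had no read in RNase T1 0.25/0.25, where a count of 0 allows up to 16.4 CPM. Their highest levels were 16.4 and 7.47 CPM, so that their order is undetermined. For several other genes in both groups the order also rests on differences within counting error. In the crushed-gel pair the interval of the ratio included 1 for CCT6A (0.614 to 1.57) and HSPA13 (0.734 to 1.3), among others. The same held for DNAJA1 (0.61 to 3.2) and DNAJA3 (0.817 to 2.05).

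**Figure D4:**
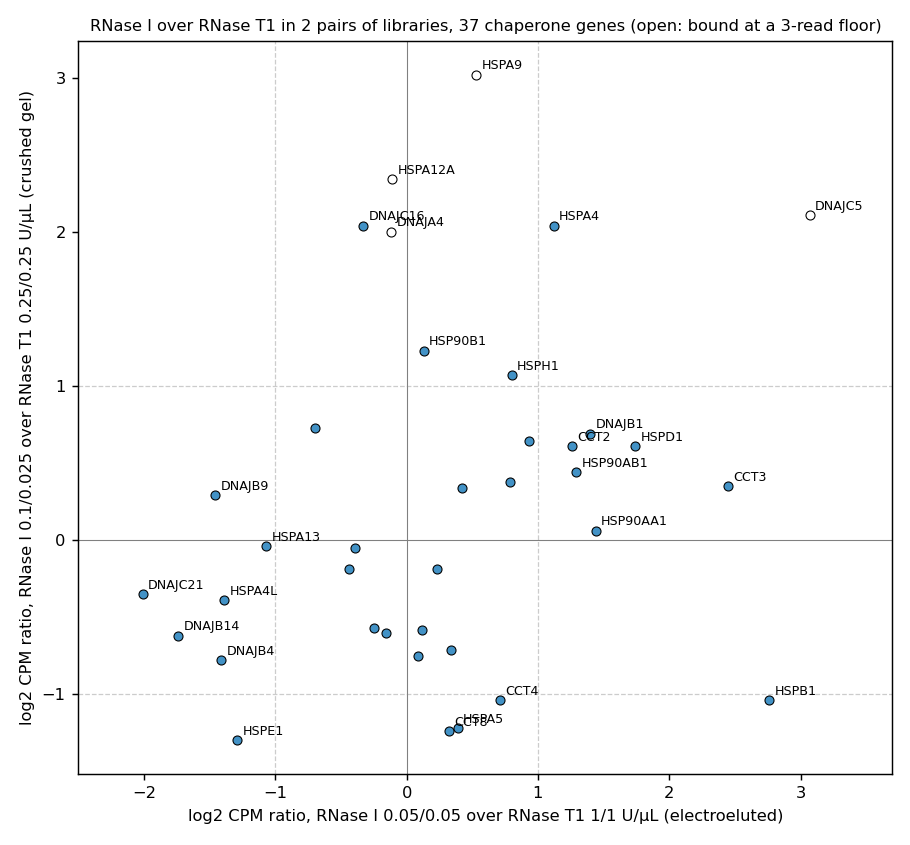
Log2 CPM ratio of RNase I over RNase T1 in the electroeluted pair (horizontal axis) and in the crushed-gel pair (vertical axis) for the 37 chaperone genes tested in both, with dashed lines at 2-fold and open circles for bounds at 3 reads. HSPE1 is past 2-fold on the RNase T1 side in both pairs, DNAJC5 and HSPA4 on the RNase I side, and HSPB1 lies on opposite sides.

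As RNase T1 cleaves after G, the G content of the sites was set beside the ratio of the electroeluted pair. The 70 member sites that were more than 2-fold higher with RNase I had a median of 21.7% G, the 65 sites within 2-fold 18.9% and the 50 sites more than 2-fold higher with RNase T1 12.7%. Over all protein-coding genes the medians were 20.6%, 17.9% and 13.5%. The lengths of the member sites differed as well, with medians of 134.5, 129 and 87.0 nt, and the part of base content, length or any other property in the ratio was not tested. The leading HSPE1 site had 12.6% G and the leading sites of HSPD1 and HSP90AA1 18.6% and 21.2%.

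**Figure D5:**
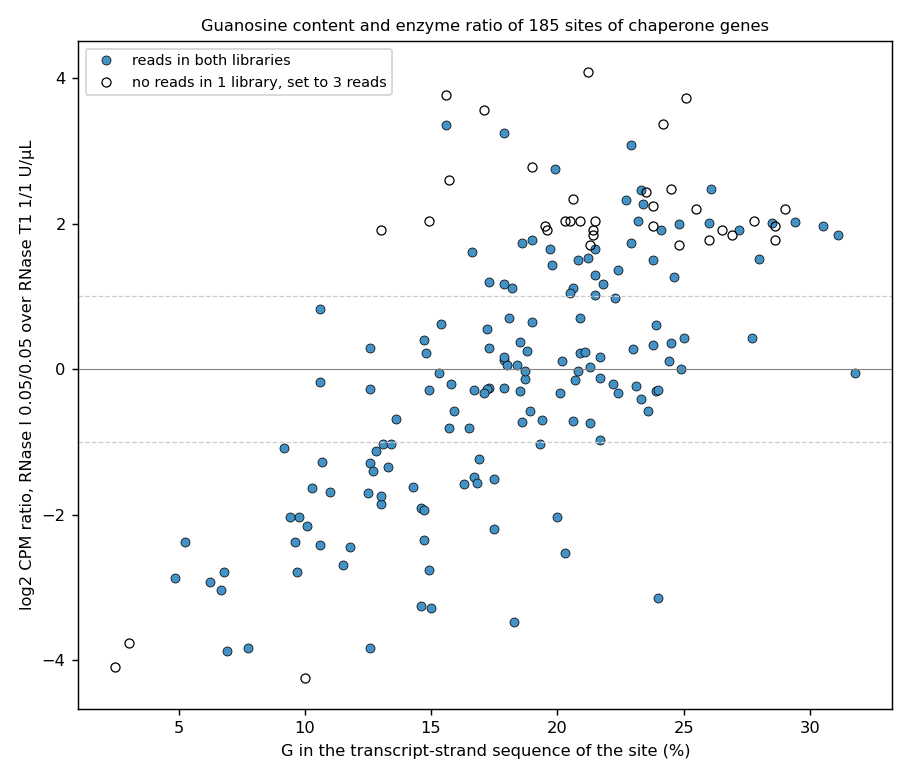
Log2 CPM ratio of RNase I 0.05/0.05 over RNase T1 1/1 against the G content (%) of 185 sites of chaperone genes with at least 20 reads in both libraries together, with open circles for sites without reads in 1 library, which were set to 3 reads. Sites more than 2-fold higher with RNase T1 had a median of 12.7% G and those more than 2-fold higher with RNase I 21.7%.

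The RNase concentration could be compared within 1 kind of gel extraction only for RNase I in the lysate. Between 0.1/0.025 and 0.05/0.025, 2 of 39 members were more than 2-fold higher (9.87% of all genes tested) and 1 more than 2-fold lower (5.50%). These were DNAJC21, with 38.6 and 7.45 CPM and a ratio of 5.18 (2.00 to 17), DNAJC25, with a ratio of 2.67 (0.935 to 9.32) on 16 and 5 reads, and CCT4, 4.35-fold higher at the lower concentration (2.88 to 6.76). With at least 50 reads neither of the former was tested and none was higher. HSPD1, which had many cluster reads, was 1.5-fold (1.37 to 1.64) and HSP90AA1 1.25-fold (1.16 to 1.35) higher at the lower concentration.

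Between RNase T1 1/1 and 0.25/0.25, which also differed in gel extraction, 13 of 45 members were more than 2-fold higher in 1/1 (36.3% of all genes tested) and 10 more than 2-fold lower (9.11%). The median log2 ratio was 0.18 for members and 0.61 for all genes, and with ratios centered on the latter the balance turned, with 8 members more than 2-fold higher and 15 more than 2-fold lower. Again the share of all genes with centered ratios is not given here, so that this turn has no reference. HSPB1 was 10.7-fold higher in 0.25/0.25 (5.17 to 23.2), DNAJC9 8.13-fold (5.99 to 11.1), CCT3 4.05-fold (2.60 to 6.22), HSP90AA1 3.52-fold (3.03 to 4.08) and HSPD1 2.69-fold (2.17 to 3.33). In the other direction DNAJC24 was at least 7.99-fold and HSPA12A at least 6.67-fold higher in 1/1. Among the 53 members with at least 20 reads, CCT5, DNAJC8, DNAJC9 and HSP90AA1 had each crushed-gel library above each electroeluted one (7.25% of all genes had this), and 13 had the opposite (33.8%), of which 11 had no read in RNase T1 0.25/0.25. This grouping was chosen after the values had been seen.

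The IgG library had 25 clusters with 324 reads, and none of them lay on a chaperone gene. The matched IGF2BP3 library, RNase I 0.1/0.025, had 43385 clusters with 803490 reads. On chaperone genes lay 272 of these clusters, with 7097 reads. As a share of the reads, a count of 0 in IgG allows up to 0.926%, and chaperone genes held 0.883% in the matched library. A difference in this share was therefore not detectable at the depth of the IgG library.

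Other genes of the chaperone network that the symbol pattern did not take were counted for comparison. Among 44 co-chaperones, regulators and folding factors of the endoplasmic reticulum, 37, 34, 36, 35 and 25 had clusters, 32, 31, 31, 27 and 21 were targets, and 18 were targets in all 5 libraries. Over all protein-coding genes 43.7%, 32.0%, 30.3%, 37.6% and 16.7% had clusters. Targets were 21.9%, 21.3%, 22.0%, 19.6% and 13.7% of all, and 9.91% were targets in all 5. The highest mean levels were those of CANX, a lectin chaperone of the endoplasmic reticulum, with 1845, 2396, 2262, 1662 and 3289 CPM, and of PTGES3, the HSP90 co-chaperone p23, with 500.3, 707, 796, 687 and 1140.1 CPM. CALR, the soluble relative of CANX, had a mean of 458 CPM, GRPEL2, a mitochondrial nucleotide exchange factor, 418 and FKBP4, an HSP90-binding immunophilin, 273. Per kb CANX had 466 and PTGES3 404 CPM, close to the 424 of HSP90AA1. HSF1 and TCP1 were looked up after the other values had been seen. HSF1 was a target in all 5 libraries, with 67.4 to 181 CPM, and TCP1 in the 4 deeper ones, with 101 to 253 CPM and no read in RNase T1 0.25/0.25.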

How the data were processed

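IR-PAR-CLIP libraries of 5 IGF2BP3 conditions and 1 IgG condition were used, with 1 library per group as given by the labels. Per the submitters' processing notes, the authors used bcl2fastq 2.20.0.422, Trimmomatic 0.30, UMI-tools 1.1.1 and Bowtie 0.12.7 and called clusters per library with PARalyzer on GRCh38. The deposited values are counts of reads and of conversion events per cluster, not normalized, and a mode score, a fraction of signal deposited by the authors that was not used. All 244645 cluster sequences equaled GRCh38 at their positions.

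Clusters were assigned to genes by same-strand exon overlap of at least 1 nt (bedtools 2.31.1, GENCODE 44). CPM refers to the sum of cluster reads, which is not the library size. Stop codons were counted as coding sequence. Intervals are Wilson (shares) or exact conditional binomial (ratios). Python 3.11.15, pandas 2.3.3 and scipy 1.17.1 were used. The assignment, the targets and the ratios were checked on simulated data.

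By rule, the text names the targets of all 5 libraries, the 10 genes with most reads in either electroeluted library, the 5 largest ratios in each direction and enzyme comparison, genes with near copies, genes without clusters and the 5 highest network genes, and sequences are those of the sites with the highest mean CPM. Further genes were named after their values had been seen. Members, lists and comparisons were chosen with earlier results of these data known. The alternatives changed thresholds, the gene assignment, feature order, read filter, centering and windows.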

Additional observations from a re-analysis of the deposited data

Results flagged for a closer look

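Reads outside the exons of the 82 genes were flagged because the comparisons above do not use them and the IgG library had none on the pseudogenes. Pseudogenes named after chaperone genes, of which 125 are annotated, held 3466 cluster reads in RNase I 0.05/0.05, 854 in RNase I 0.1/0.025, 880 in RNase I 0.05/0.025, 687 in RNase T1 1/1 and 74 in RNase T1 0.25/0.25. These were 18.3%, 12%, 13%, 9.48% and 4.84% of the reads on the chaperone genes themselves. In RNase I 0.05/0.05 the HSP90AB pseudogenes had 1143 reads, the HSPA8 pseudogenes 976, the HSP90AA pseudogenes 761 and the HSPD1 pseudogenes 268. The canonical transcripts of HSPD1, HSPA8, HSP90AB1 and HSP90AA1 share 52.3%, 46.4%, 43.6% and 40.4% of their 30-nt words with other annotated genes, so that levels of these genes are uncertain by the reads placed on copies. HSPE1 shares 55.3% (31.1% with HSPE1-MOB4) and DNAJC9 32.3%, so that their levels carry the same uncertainty. The 26 annotated HSPE1 pseudogenes had 5 cluster reads in RNase I 0.1/0.025 and none in the other libraries. Which copy the reads came from was not tested.

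Within chaperone genes but outside any exon, 64 clusters with 879 reads were found in the 5 libraries. Of these, 39 clusters with 479 reads lay in DNAJC25, whose region is shared with DNAJC25-GNG10, and 16 clusters with 314 reads in HSPB8, which thus had more reads outside its exons than the 47 on them.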

How the results depend on the processing

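No paired analysis was possible because each condition had a single library. Of 272 values recomputed under alternatives, 190 stayed within 1.5 times (counts) or within the counting interval (shares and ratios), 82 moved and 0 changed direction. Counts and shares have no direction, so that only the ratios of single genes could have changed it. The balance of members higher and lower did turn with centered ratios, in the crushed-gel pair and for the RNase T1 concentration. Genes with a cluster in RNase I 0.05/0.05 fell to 35 with only clusters above 10 CPM. With more than 0.75 conversions per read 14, 21, 15, 15 and 19 genes were targets, 4 of them in all 5 libraries. Of all protein-coding genes 6.73%, 12.2%, 11.5%, 7.31% and 7.89% were targets at this threshold. With conversion events above 50% of all T events 0 chaperone genes were targets in each library and 0 in all 5. At this setting hardly any gene passed, with 0, 0, 0, 2 and 0 of all protein-coding genes. With at least 20 reads per cluster 9 genes were targets in RNase T1 0.25/0.25 (2.52% of all protein-coding genes) and 8 in all 5. The 3′UTR share was 45.1%, 69.1%, 64.3%, 79.5% and 83.7% with the coding sequence first, 59.7%, 69.9%, 63.3%, 78.3% and 84.6% by clusters, and without HSP90AA1 84.6% (RNase T1 1/1) and 92.5% (RNase T1 0.25/0.25). Members more than 2-fold lower in the crushed-gel pair were 3 with at least 50 reads and 12 with centered ratios. For RNase I in the lysate 0 were higher with at least 50 reads and 3 lower without a read filter, and for RNase T1 8 were higher and 15 lower with centered ratios. Modes before the midpoint of the 3′UTR were 47.6% in RNase I 0.05/0.025 with 1 cluster per gene. CATT was found in 76.4%, 73.3%, 69.8%, 51.0% and 63.6% with 1 cluster per gene, and around the modes (41 nt) in 21.8%, 25.5%, 23.5% and 32.4% of RNase I 0.05/0.05, 0.1/0.025, 0.05/0.025 and RNase T1 0.25/0.25. The cause of these shifts was not tested. RNase T1 0.25/0.25 was the shallowest IGF2BP3 library, and 28 genes were targets in all of the other 4.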
